A study of Arabidopsis thaliana with 24 samples.

Results

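Freshly cut hypocotyl explants of the Arabidopsis thaliana mutant siz1-2 were compared with freshly cut explants of wild-type Columbia (Col-0, written WT). The comparison rests on 6 of the 24 RNA-seq libraries of the series, 3 of siz1-2 and 3 of WT, chosen by the titles that name each genotype after the cut. Each gene was given 1 value per library, that of its isoform with the highest mean over all 24 libraries. Of 25960 genes, the 20361 that reached a value of 1 in 3 or more of the 24 libraries were tested. Seedlings of both genotypes grew on sucrose medium in darkness for 7 days, and hypocotyl pieces of about 10 mm were cut with a razor blade and sampled within 15 minutes, before any hormone or light treatment. The other 18 libraries come from explants of the same genotypes kept in light for 4 days on callus-inducing medium (CIM, with the auxin 2,4-D and the cytokinin kinetin) and then for 4 or 6 days on shoot-inducing medium (SIM, with IAA and 2-IPA). They serve here as a common estimate of spread and as the comparison at the end. Only 1 mutant allele was used. The p-values rest on the spread within groups pooled over these 24 libraries, 18 of them cultured, and not on the 6 freshly cut ones alone. Since the labels leave unsaid whether the replicates (r1, r2 and r3) grew as separate cultures, that spread may be technical.

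SIZ1 is a SUMO E3 ligase, the enzyme that helps the conjugating enzyme SCE1 attach the small protein SUMO to lysines of target proteins, many of them transcription factors and chromatin proteins in the nucleus. SUMO conjugates accumulate within minutes of heat and other stresses, and proteases such as ESD4, OTS1 and OTS2 take SUMO off again. In Arabidopsis, siz1 mutants are known for dwarf growth with raised salicylic acid and for changed responses to abscisic acid, phosphate, cold and light. Levels below are in reads per 1000000 library reads (rpm), listed for r1, r2 and r3 in that order. Differences are log2(siz1-2/WT) of rpm + 1 with their standard error, a scale that understates the change of low genes. A gene was called higher or lower where the Benjamini-Hochberg adjusted p of limma over all tested genes was below 0.05.

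The 6 libraries held 8359478 to 12085150 reads. The label of the mutant was checked on SIZ1 itself, on chromosome 5 at 24294704 to 24301157. The count of its isoform 1 exceeded that of isoform 3 by 240, 256 and 216 reads in WT and by 0 reads in all 3 siz1-2 libraries. SIZ1 transcripts were still present in the mutant, at 72.6, 81.6 and 72.9 rpm against 90.3, 91.3 and 99.3 in WT (log2 −0.30 ± 0.12, limma adjusted p = 0.113). The tissue label was checked on defining markers. Transcripts of PHYA, the photoreceptor abundant in dark-grown seedlings, averaged 377.6 rpm in WT and 400.5 in siz1-2. Shoot apex markers were at 0 reads in both genotypes for WUS, and root hair markers were at 0 for EXPA7 and COBL9. Other members of these lists were not silent. The 12 shoot meristem and boundary genes summed to 164.0, 189.5 and 175.6 rpm in WT and 167.1, 147.6 and 210.3 in siz1-2. The 6 root hair and root cap markers summed to 1.90, 2.27 and 4.16 rpm in WT and 1.83, 1.79 and 3.22 in siz1-2. The silent markers alone therefore do not show that other tissue was absent.

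WT r1 stood apart from the other 5 libraries in genes of green tissue. The 42 tested photosynthesis genes summed to 2652.4 rpm in WT r1, to 467.1 and 537.3 in the other WT libraries, and to 645.1, 776.6 and 622.2 in siz1-2. LHCB1.3, a light-harvesting protein, was at 382.5 rpm there and at 1.09 to 9.24 in the other 5 libraries. PORA, the enzyme that reduces protochlorophyllide in etiolated cotyledons, was at 119.7 rpm there and at 0.111 to 1.09 elsewhere. EM1, a seed protein, was at 7.2 rpm there and at 0 to 0.203 elsewhere. Of the photosynthesis genes, 0 were called in either direction, with a median log2 of −0.38 that became 0.60 without WT r1. By edgeR on the recovered reads 2 of them were lower, and 8 were higher when 4 libraries that stand apart were left out. Each called gene whose 6 values are printed below is therefore given with the library, if any, whose removal ended its call. Called genes that are only named, or given by their means, were not followed in that way. Because the spread was pooled over all 24 libraries, a lost call does not by itself mean that the 6 values are uneven. In bulk tissue, fewer cells of a type and less RNA per cell cannot be told apart.

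**Figure D1:**
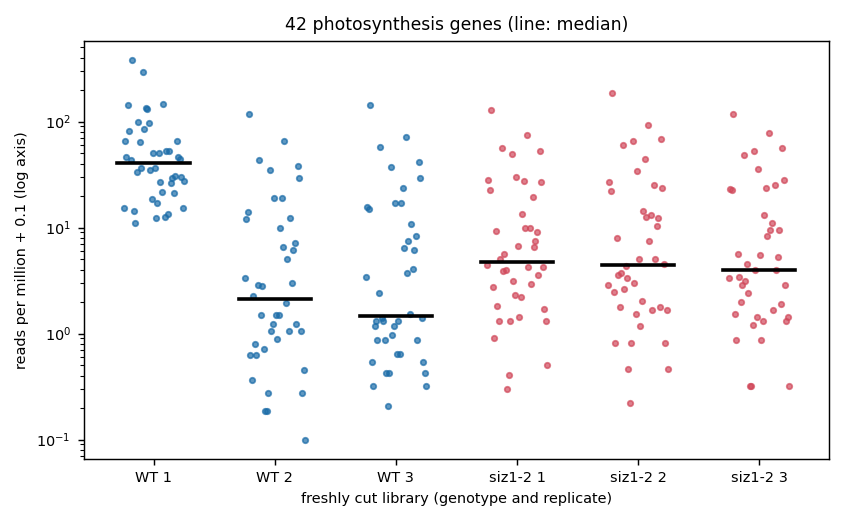
Levels of the 42 tested photosynthesis genes in each of the 6 freshly cut libraries, in rpm + 0.1 on a log axis, with 1 point per gene and a line at the median. The library WT 1 sits above the other 5, whose summed levels of these genes lie between 467.1 and 776.6 rpm against 2652.4 rpm in WT 1.

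In siz1-2, 889 genes were called higher (4.37% of those tested) and 1344 lower (6.6%). The counts of called members in the gene lists below are to be read beside these shares. The higher genes moved further, with a median log2 of 0.85 against −0.53 for the lower ones. A change of at least 2-fold was reached by 352 higher and 188 lower genes. The values of the groups did not overlap in 850 of the higher and 1281 of the lower genes, against 30.7% of all tested genes that did not overlap, 10.9% upward and 19.8% downward. Without WT r1, 650 genes were higher (3.2%) and 697 lower (3.43%), and 604 and 679 of the original calls were kept. The median of all tested genes was −0.07, and scaling by median of ratios moved it to −0.02 and the split to 1126 higher and 988 lower. Which direction held more genes therefore depended on the scaling.

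On the log2(rpm + 1) scale the gene with the largest rise was BCB, on chromosome 5 at 6826365 to 6827748, which encodes a blue copper-binding protein known to respond to stress and aluminium. It was at 481.8, 494.6 and 246.9 rpm in siz1-2 and at 7.70, 9.25 and 9.96 in WT (log2 5.30 ± 0.28, limma adjusted p = 2.3e-10). All 3 mutant libraries were far above all 3 WT libraries. GLIP3, a GDSL-type lipase, followed with 31.6, 42.8 and 30.6 rpm against 1.16, 0.349 and 0.876 (log2 4.34 ± 0.25, limma adjusted p = 3.66e-10). AT1G65190, annotated as a protein kinase family member, was at 25.4, 23.2 and 17.6 rpm against 0.414, 0.262 and 0 (log2 4.23 ± 0.17, limma adjusted p = 4.87e-12). It passed the filter only through the siz1-2 libraries at 0 d, where it was high, and could not be tested without any 1 of them. Its call and its place among the largest rises are therefore a description only. The gene was nearly silent in WT, and by edgeR its log2 rise of 6.51 exceeded the 5.55 of BCB, so the order depends on the scale.

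Genes best known from seeds and surfaces were also among the 12 largest rises. M17, a late embryogenesis abundant protein, stood at 114.0, 91.9 and 117.1 rpm in siz1-2 and 5.13, 4.01 and 6.02 in WT (log2 4.17 ± 0.32, limma adjusted p = 2.72e-08). LTP4, a lipid transfer protein induced by abscisic acid, was at 187.1, 134.7 and 156.3 rpm against 8.44, 9.77 and 7.33 (log2 4.07 ± 0.34, limma adjusted p = 1.13e-07). For both, the lowest mutant library lay more than 10-fold above the highest WT library. AT3G05950, a cupin protein, reached 131.2, 207.9 and 142.3 rpm against 18.2, 9.25 and 27.7 (log2 3.15 ± 0.26, limma adjusted p = 8.55e-08). AT1G48100, a pectin lyase-like protein, was at 34.0, 31.3 and 38.2 rpm against 2.81, 4.54 and 2.41 (log2 3.09 ± 0.26, limma adjusted p = 1.01e-07).

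QQS, a gene found in Arabidopsis alone that is known to affect starch content, was at 17.2, 26.6 and 15.2 rpm in siz1-2 and 0.0827, 0.349 and 0.657 in WT (log2 3.90 ± 0.19, limma adjusted p = 4.96e-11). AT1G64500, of the glutaredoxin family, was at 13.0, 28.8 and 36.0 rpm against 4.63, 0.349 and 0 (log2 3.66 ± 0.48, limma adjusted p = 4.14e-05). WT r1 was the highest WT library for AT1G64500, and still lay below every mutant library. CBP60G encodes a calmodulin-binding activator of salicylic acid synthesis. It was at 47.8, 50.5 and 38.4 rpm against 1.82, 3.49 and 3.17 (log2 3.62 ± 0.91, limma adjusted p = 0.0139), with its call lost without WT r1 (limma adjusted p = 0.0558). CBP60G was called when only the 6 libraries were fitted (limma adjusted p = 2.28e-05). The last members of the 12, the heat stress factors HSFA6B and HSFA2, are described with the heat genes.

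**Figure D2:**
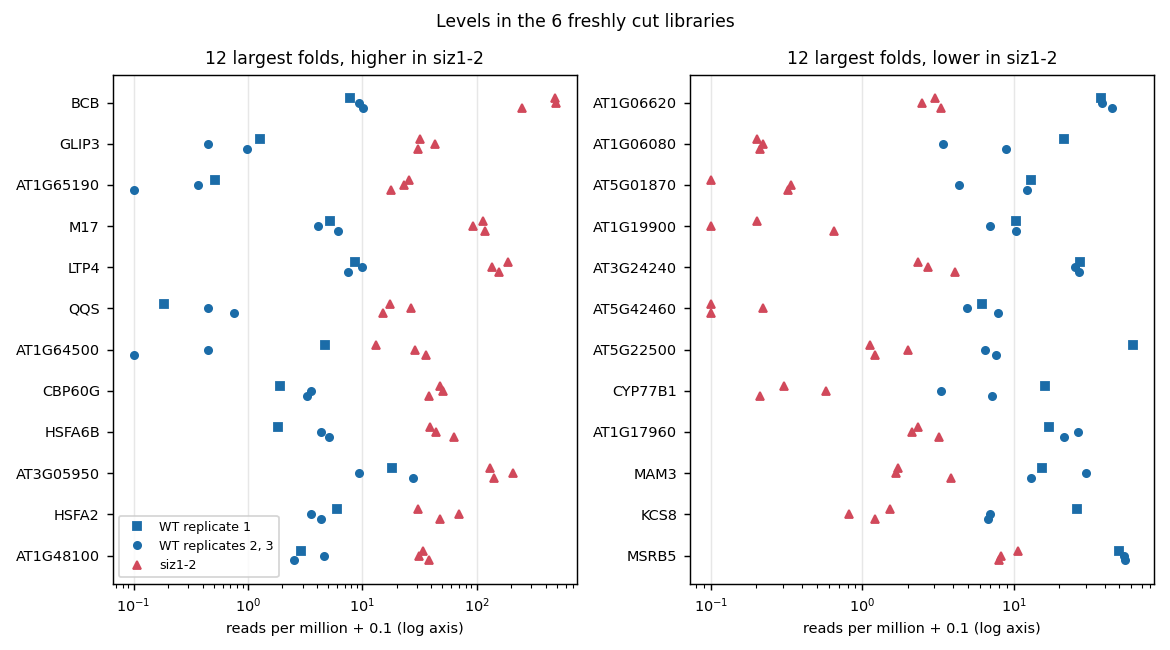
Levels in the 6 freshly cut libraries of the 12 called genes with the largest rise (left) and the 12 with the largest fall (right) whose groups do not overlap, in rpm + 0.1 on a log axis. Squares are WT r1, circles WT r2 and r3, and triangles siz1-2. BCB lies at 246.9 to 494.6 rpm in siz1-2 and at 7.70 to 9.96 rpm in WT, and AT1G06620 at 2.39 to 3.22 rpm in siz1-2 and at 37.8 to 44.5 rpm in WT.

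On the log2(rpm + 1) scale the largest fall was that of AT1G06620, a 2-oxoglutarate-dependent dioxygenase family gene, at 2.94, 2.39 and 3.22 rpm in siz1-2 and 37.8, 38.2 and 44.5 in WT (log2 −3.42 ± 0.17, limma adjusted p = 4.96e-11). AT5G42460, an F-box protein gene, had 1 read over the 3 mutant libraries and 200 over the WT libraries. At the library sizes this is a ratio of 167 (95% counting interval 29.6 to 6610), with a log2 change of −2.78 ± 0.16 (limma adjusted p = 3.68e-10). MSRB5, a methionine sulfoxide reductase that repairs oxidised protein, was at 10.6, 8.13 and 7.88 rpm against 49.8, 53.6 and 54.4 (log2 −2.45 ± 0.24, limma adjusted p = 9.71e-07). For all 3 genes the WT libraries were close to each other and far above the mutant. By edgeR, the log2 fall was −3.77 for AT1G06620 and −7.07 for AT5G42460, a different order from that on the log2(rpm + 1) scale.

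Among the 12 largest falls were 5 genes whose products make, modify or carry lipids, and WT r1 was the highest WT library for each. AT1G06080, delta 9 desaturase 1, was at 0.102, 0.12 and 0.111 rpm in siz1-2 and 21.3, 3.31 and 8.76 in WT, or 3 reads against 376, a ratio of 104 (95% counting interval 35.4 to 508). Its log2 change was −3.14 ± 0.67 (limma adjusted p = 0.00493). AT5G01870, a lipid-transfer type protein, stood at 0, 0.239 and 0.222 rpm against 13.0, 4.27 and 12.1 (log2 −3.11 ± 0.44, limma adjusted p = 0.000109). Even the lowest WT library was far above the mutant for both. CYP77B1, a cytochrome P450 that acts on fatty acids, was at 0.203, 0.478 and 0.111 rpm against 16, 3.23 and 7.11 (log2 −2.73 ± 0.61, limma adjusted p = 0.0067). AT5G22500, fatty acid reductase 1, which makes primary alcohols for suberin, was at 1.02, 1.91 and 1.11 rpm against 61.6, 6.37 and 7.55. It was called at log2 −2.77 ± 0.53 (limma adjusted p = 0.00195) but not when only the 6 libraries were fitted (limma adjusted p = 0.133). KCS8, a 3-ketoacyl-CoA synthase that lengthens fatty acids, was at 1.42, 0.718 and 1.11 rpm against 26.2, 6.89 and 6.68 (log2 −2.52 ± 0.61, limma adjusted p = 0.011), and lost its call without WT r1 (limma adjusted p = 0.0733). These 5 were grouped after their values were seen, and the part of WT r1 in them was not tested beyond these values.

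Besides MAM3, which is described with the glucosinolate genes, 3 of the 12 largest falls remain. AT3G24240, a leucine-rich repeat receptor-like kinase gene, was at 2.23, 2.63 and 4.00 rpm in siz1-2 and 27.5, 25.3 and 26.8 in WT (log2 −2.82 ± 0.31, limma adjusted p = 5.94e-06). AT1G17960, a threonyl-tRNA synthetase gene, was at 2.23, 2.03 and 3.11 rpm against 17, 26.7 and 21.5 (log2 −2.71 ± 0.20, limma adjusted p = 1.52e-08). AT1G19900, related to glyoxal oxidase, was at 0.102, 0 and 0.555 rpm against 10.3, 6.89 and 10.2 (log2 −3.06 ± 0.17, limma adjusted p = 2.3e-10). AT1G19900 passed the filter only through the WT libraries at 0 d, where it was high, and could not be tested without any 1 of them. Its call and its place among the largest falls are therefore a description only. The groups of all 3 genes lay well apart.

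The genes with the largest shifts in absolute level follow, first those that rose. Transcripts of UBQ10, a polyubiquitin gene, were at 4680.6, 5231.8 and 5119.6 rpm in siz1-2 and 3566.1, 3459.9 and 4107.1 in WT (log2 0.44 ± 0.11, limma adjusted p = 0.0118). The call was lost without WT r1 or WT r2 (limma adjusted p = 0.0518 and 0.0593). DIN10, which encodes a raffinose synthase-like protein induced in darkness and sugar starvation, was at 2421.4, 2697.4 and 2430.2 rpm against 1265.3, 1073.5 and 1349.6 (log2 1.04 ± 0.22, limma adjusted p = 0.00486). BGAL1, a beta-galactosidase, was at 2746.2, 2962.3 and 2600.1 rpm against 1573.3, 1540.2 and 1755.0 (log2 0.77 ± 0.13, limma adjusted p = 0.000441). The mutant libraries were above the WT libraries for each of these genes. The sucrose exporter SWEET11 rose to 1826.4, 2211.1 and 1498.5 rpm from 939.2, 901.5 and 1203.1 (log2 0.86 ± 0.23, limma adjusted p = 0.0207), and its call was lost without WT r1, WT r2 or siz1-2 r2 (limma adjusted p = 0.0818, 0.0861 and 0.0985). The glutathione transferase GSTF2 was at 1669.3, 1475.0 and 1760.7 rpm against 463.0, 500.7 and 442.6 (log2 1.80 ± 0.49, limma adjusted p = 0.0217). It lost its call without WT r1, r2 or r3 or siz1-2 r3 (limma adjusted p = 0.0641, 0.0535, 0.0578 and 0.0677), although its groups did not overlap. Polyubiquitin genes and some glutathione transferases have near-identical copies, between which the counting could have divided reads.

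Among the abundant genes that fell, CYP705A5, a cytochrome P450 of the thalianol pathway, was at 403.8, 317.5 and 420.3 rpm against 875.7, 906.6 and 832.1 in WT (log2 −1.20 ± 0.28, limma adjusted p = 0.00825). MLP43, a major latex protein-like gene, was at 524.6, 497.0 and 565.7 rpm against 902.3, 1050.5 and 890.1 (log2 −0.84 ± 0.20, limma adjusted p = 0.00887). Both groups were apart in each case. PCK1, the phosphoenolpyruvate carboxykinase that feeds sugar synthesis from stored oil, was at 440.7, 471.1 and 450.2 rpm against 884.7, 823.1 and 902.7 (log2 −0.94 ± 0.25, limma adjusted p = 0.0192). Its call was lost without WT r1, WT r3 or siz1-2 r3 (limma adjusted p = 0.0618, 0.0551 and 0.059). The ethylene response factor gene EBP was at 1931.3, 2270.5 and 2527.7 rpm against 3260.2, 3552.8 and 4543.2 (log2 −0.75 ± 0.21, limma adjusted p = 0.0253) and lost its call without WT r2, WT r3, siz1-2 r1 or siz1-2 r2 (limma adjusted p = 0.0547, 0.108, 0.0875 and 0.0606). ANNAT1, an annexin, was at 706.7, 544.7 and 577.0 rpm against 1078.1, 1291.3 and 891.1 (log2 −0.83 ± 0.21, limma adjusted p = 0.0163). Without WT r1, WT r2, siz1-2 r2 or siz1-2 r3 it was not called (limma adjusted p = 0.0517, 0.0844, 0.0667 and 0.0607). RD19, a cysteine protease induced by drought, was at 1874.5, 1766.7 and 1454.3 rpm against 2288.8, 2170.7 and 2332.1 (log2 −0.42 ± 0.12, limma adjusted p = 0.0214), lost without WT r1, WT r3 or siz1-2 r3 (limma adjusted p = 0.0694, 0.0654 and 0.127), under median-of-ratios scaling, and when only the 6 libraries were fitted (limma adjusted p = 0.056).

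**Figure D3:**
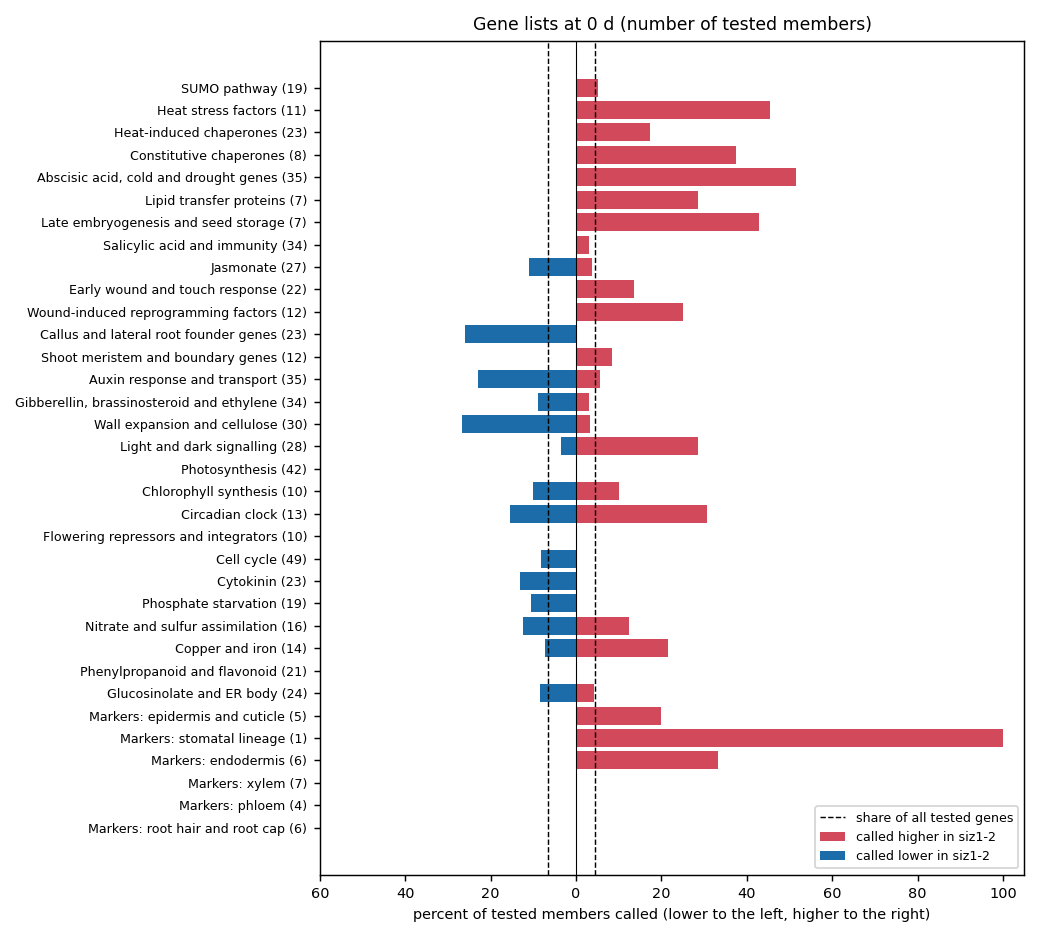
Share of the tested members of each gene list called higher (to the right) and lower (to the left) in freshly cut siz1-2, in percent, with the number of tested members in brackets. The dashed lines mark the shares over all tested genes, 4.37% higher and 6.6% lower. The abscisic acid list (18 of 35 higher) and the heat stress factors (5 of 11 higher) extend furthest to the right among the lists of more than 10 tested genes.

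In the SUMO pathway, 1 of 19 tested genes rose and 0 fell, with a median log2 of −0.13, beside 4.37% higher and 6.6% lower over all tested genes. SCE1, the SUMO-conjugating enzyme, was at 153.1, 154.2 and 157.0 rpm in siz1-2 and 97.0, 97.4 and 93.7 in WT (log2 0.68 ± 0.07, limma adjusted p = 5.57e-07). The 3 libraries of each genotype were within a few rpm of each other, and the call held under every alternative tried. The SUMO genes SUM1 (66.8 rpm against 69.9 in WT) and SUM2 (88.0 against 101.2) were not called. SUM3, a less conserved SUMO, was at 3.25, 5.38 and 3.33 rpm against 7.45, 7.50 and 5.69 and did not pass (log2 −0.68 ± 0.22, limma adjusted p = 0.0523). The activating enzyme subunits SAE1A (19.0 against 19.7), SAE1B (17.2 against 21.0) and SAE2 (39.1 against 40.0) were not called. Nor were the other SUMO ligases MMS21 (3.16 against 4.39), PIAL1 (18.2 against 18.8) and PIAL2 (13.1 against 12.2). Among the proteases that remove SUMO, ESD4 (31.0 against 32.2), ELS1 (5.49 against 6.19), OTS1 (29.7 against 34.9), OTS2 (25 against 29.9), SPF1 (62.6 against 68.6), SPF2 (11.8 in both) and FUG1 (0.464 against 0.443) were not called. SUM5, a further SUMO gene, averaged 0.719 rpm against 1.22 and was not called either.

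The heat stress genes called in siz1-2 were all higher, in explants for which the labels name no heat treatment. Heat stress factors (HSFs) are transcription factors that bind heat shock elements in the promoters of chaperone genes, and the chaperones then hold or refold damaged proteins. Of 11 tested heat factor genes, 5 rose and 0 fell, with a median log2 of 0.82, and in 8 the groups did not overlap. Of 23 tested heat-induced chaperone genes, 4 rose and 0 fell, with a median of 1.24 and no overlap in 17. Of 8 constitutively expressed chaperone genes, 3 rose and 0 fell, with a median of 0.37. Over all tested genes, 4.37% rose and 6.6% fell, and 30.7% did not overlap between groups (10.9% upward). The count for the induced chaperones depended on the fit, with 14 higher when only the 6 libraries were fitted and 16 without the 4 libraries that stand apart. Without WT r1, the counts higher were 4, 3 and 4 for the lists in that order.

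HSFA2, the factor most strongly induced by heat in Arabidopsis, lies on chromosome 2 at 11135624 to 11137792. It was at 30.8, 69.4 and 47.2 rpm in siz1-2 and 5.96, 3.49 and 4.27 in WT (log2 3.12 ± 0.61, limma adjusted p = 0.00255). HSFA7A, a related factor that heat also induces, was at 139.2, 263.1 and 277.5 rpm against 54.7, 58.2 and 71.9 (log2 1.81 ± 0.36, limma adjusted p = 0.0027). For both genes, and for most heat genes below, r1 was the lowest siz1-2 library and still lay above all WT libraries. The 250 bases before the start of HSFA2 (chr2:11135374-11135623, plus strand) and HSFA7A (chr3:19264891-19265140, plus strand) are shown in the RefSeq TAIR10.1 sequence because they hold the most heat shock elements among the named heat genes. Capitals mark each match to GAANNTTC or TTCNNGAA, searched on both strands, 3 matches in HSFA2 and 4 in HSFA7A, some of them overlapping.
HSFA2: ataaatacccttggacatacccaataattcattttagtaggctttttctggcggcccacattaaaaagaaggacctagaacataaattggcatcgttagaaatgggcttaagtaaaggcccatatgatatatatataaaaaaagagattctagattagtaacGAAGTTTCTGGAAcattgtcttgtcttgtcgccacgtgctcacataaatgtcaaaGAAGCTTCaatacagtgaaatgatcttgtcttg
HSFA7A: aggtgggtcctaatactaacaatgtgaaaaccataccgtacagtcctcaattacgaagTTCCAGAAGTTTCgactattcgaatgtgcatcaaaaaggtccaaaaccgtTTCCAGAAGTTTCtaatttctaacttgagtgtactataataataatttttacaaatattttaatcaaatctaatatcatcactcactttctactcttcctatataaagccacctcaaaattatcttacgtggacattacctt
Such a match stood in 15.7% of the 20134 promoters of tested genes found in the annotation, in 13 of the 42 tested heat genes (31.0%) and in 3 of the 12 heat genes that rose (25%). HSP101 and HSP70-4 had 0 matches in this window. A match is a description of the letters and not a site of binding.

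HSFA6B, a factor that abscisic acid is known to induce, was not on the heat list and was among the 12 largest rises. It was at 38.6, 44.0 and 63.5 rpm against 1.74, 4.27 and 5.03 in WT (log2 3.45 ± 0.31, limma adjusted p = 2.51e-07). HSFB2B and HSFB1, class B factors that lack a typical activation domain, rose as well. HSFB2B was at 50.0, 75.8 and 67.9 rpm against 29.1, 24 and 30.3 (log2 1.17 ± 0.21, limma adjusted p = 0.00103). HSFB1 was at 239.8, 306.5 and 302.4 rpm against 156.6, 182.9 and 141.2 (log2 0.82 ± 0.17, limma adjusted p = 0.00368). The groups of all 3 genes were apart. MBF1C, a heat-induced coactivator, was at 171.0, 368.7 and 394.9 rpm against 54.4, 39.0 and 54.1 (log2 2.56 ± 0.71, limma adjusted p = 0.0254). Its call was lost without WT r1, r2 or r3 or without siz1-2 r2 or r3 (limma adjusted p = 0.0621, 0.0849, 0.0525, 0.0814 and 0.0936). The HSFA1 genes, which encode the factors that start the heat response, were not called, as with HSFA1A (8.10 rpm against 7.86) and HSFA1B (25.4 against 20.9).

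Among the chaperones, HSP101, which pulls proteins out of aggregates, was at 89.9, 193.4 and 148.7 rpm against 22.2, 15.2 and 17.9 in WT (log2 2.85 ± 0.57, limma adjusted p = 0.00304). HOP3, a cochaperone that links HSP70 and HSP90, was at 39.7, 114.4 and 96.0 rpm against 12.7, 8.64 and 9.52 (log2 2.78 ± 0.62, limma adjusted p = 0.0063). The lowest mutant value of each was more than 3 times the highest WT value. HSP70-4, a cytosolic HSP70, was at 560.0, 1205.5 and 1107.0 rpm against 152.0, 91.6 and 118.2 (log2 2.93 ± 0.87, limma adjusted p = 0.0356). Its call was lost without WT r1, r2 or r3 or without siz1-2 r2 or r3 (limma adjusted p = 0.0708, 0.108, 0.0763, 0.102 and 0.105). The HSP40-type cochaperone ERDJ3A was at 10.7, 13.4 and 11.1 rpm against 6.04, 3.14 and 3.72 (log2 1.29 ± 0.40, limma adjusted p = 0.0443). That call was lost without WT r2 or r3 or any 1 siz1-2 library (limma adjusted p = 0.151, 0.108, 0.069, 0.123 and 0.0989). HSP90-1 averaged 192.8 rpm against 25.8 but was not called (log2 2.74, limma adjusted p = 0.0745), nor was the small heat shock protein gene AT1G07400, at 13.5 against 1.07 (log2 2.69, limma adjusted p = 0.0553).

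Chaperones that cells make without heat rose less. HSP70-3 was at 532.1, 769.4 and 803.7 rpm against 414.1, 309.8 and 329.9 (log2 0.98 ± 0.16, limma adjusted p = 0.000379). HSP90-3 was at 589.8, 890.1 and 854.5 rpm against 489.8, 396.3 and 429.8 (log2 0.81 ± 0.17, limma adjusted p = 0.00419). Each group was apart from the other. HSP90-2 was at 609.1, 934.7 and 823.3 rpm against 526.8, 427.4 and 426.8 (log2 0.76 ± 0.19, limma adjusted p = 0.0138), with its call lost without WT r2 or r3 or siz1-2 r2 or r3 (limma adjusted p = 0.0568, 0.0504, 0.0749 and 0.0568). HSP90-2 and HSP90-3 are near-identical in sequence, so their separate levels are uncertain.

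**Figure D4:**
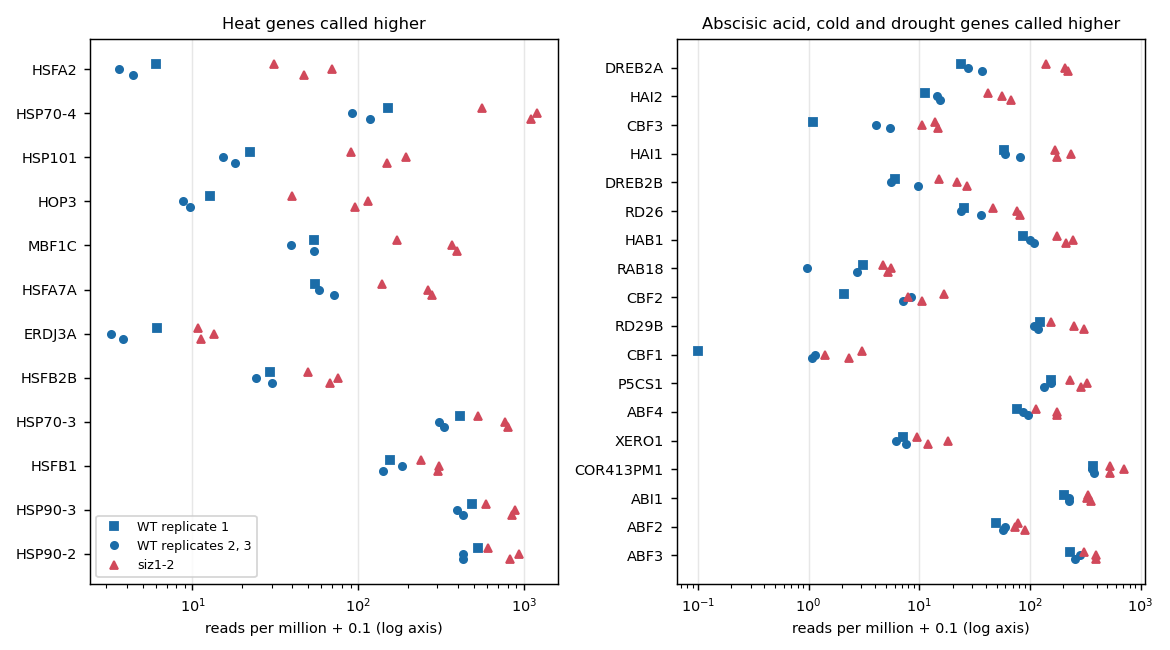
Levels in the 6 freshly cut libraries of the 12 heat genes (left) and the 18 abscisic acid, cold and drought genes (right) called higher in siz1-2, in rpm + 0.1 on a log axis. Squares are WT r1, circles WT r2 and r3, and triangles siz1-2. HSP101 lies at 89.9 to 193.4 rpm in siz1-2 and 15.2 to 22.2 rpm in WT, while the groups of CBF2 overlap.

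The genes of abscisic acid, cold and drought responses that were called were all higher in siz1-2. Abscisic acid is sensed by receptors that block PP2C phosphatases such as ABI1, HAB1 and HAI1. This frees kinases that activate ABF transcription factors, which bind ABRE elements in promoters. DREB and CBF factors act beside them in drought, heat and cold. Of 35 tested genes of this list, 18 rose and 0 fell, with a median log2 of 0.65, and 24 did not overlap between groups. Over all tested genes, 4.37% rose and 30.7% did not overlap (10.9% upward). The counts were 16 higher without WT r1, 13 by edgeR and 19 under median-of-ratios scaling.

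DREB2A, a factor of the drought and heat responses, was at 138.4, 207.7 and 220.3 rpm in siz1-2 and 23.7, 27.4 and 36.7 in WT (log2 2.64 ± 0.29, limma adjusted p = 3.81e-06). CBF3, the cold response factor also named DREB1A, was at 13.8, 10.5 and 14.8 rpm against 0.993, 3.93 and 5.36 (log2 1.81 ± 0.28, limma adjusted p = 0.000215). WT r1 was the lowest library for CBF3. The phosphatase genes HAI1 and HAI2 are strongly induced by abscisic acid. HAI2 was at 41.7, 55.9 and 67.5 rpm against 11.1, 14.5 and 15.2 (log2 1.93 ± 0.25, limma adjusted p = 3.52e-05). HAI1 was at 169.7, 234.9 and 174.5 rpm against 58.1, 59.8 and 82.1 (log2 1.52 ± 0.25, limma adjusted p = 0.000442). The mutant libraries lay above all WT libraries for both. HAB1, a further PP2C of the receptor complex, averaged 209.3 rpm against 98.2 (log2 1.08, limma adjusted p = 2e-06), and ABI1 was called higher too.

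The other members that rose were the factors DREB2B, CBF1, CBF2, RD26, ABF2, ABF3 and ABF4, the dehydrins RAB18 and XERO1, the proline synthesis gene P5CS1, the cold-regulated membrane protein COR413PM1, and RD29B, a drought marker at 238.0 rpm against 117.4 (log2 0.96, limma adjusted p = 0.0156). The cold and drought effector genes with the highest levels did not pass. COR47 averaged 1673.5 rpm against 1318.0 (limma adjusted p = 0.769) and RD29A 290.0 against 253.2 (limma adjusted p = 0.763). NCED3, the rate-limiting enzyme of abscisic acid synthesis, averaged 41.5 rpm against 37.0 (limma adjusted p = 0.932).

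Lipid transfer and late embryogenesis proteins are known targets of abscisic acid. Of 7 tested lipid transfer protein genes, 2 rose and 0 fell, with a median log2 of 0.30. Besides LTP4, these were LTP3, at 124.9, 136.1 and 95 rpm against 42.0, 19.0 and 32.5 (log2 1.95 ± 0.59, limma adjusted p = 0.0398), whose call was lost without any 1 of the 6 libraries (limma adjusted p from 0.0563 to 0.152). LTP3 and LTP4 are neighbouring, similar genes. Of 28 late embryogenesis and seed storage genes, 7 were tested and the others were too low, so 3 higher and 0 lower describes the expressed members only. Beside M17, LEA4-5 was at 24.1, 24.6 and 36.6 rpm against 12.8, 5.67 and 6.35 (log2 1.72 ± 0.39, limma adjusted p = 0.00634). M10 was at 6.90, 7.66 and 7.33 rpm against 4.05, 1.48 and 2.30 (log2 1.26 ± 0.18, limma adjusted p = 0.000121). WT r1 was the WT library nearest to the mutant for LEA4-5 and M10. The call of M10 was lost by edgeR (edgeR adjusted p = 0.142) and by DESeq2 (DESeq2 adjusted p = 0.773).

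The 250 bases before HAI2 (chr1:2282829-2283078, minus strand) and LEA4-5 (chr5:2090431-2090680, minus strand), in the RefSeq TAIR10.1 sequence, hold the most ABRE cores among the named genes of these lists that rose. Capitals mark each match to the core ACGTG on either strand, 4 in each window. A CACGTG G-box counts on both strands, so its matches overlap.
HAI2: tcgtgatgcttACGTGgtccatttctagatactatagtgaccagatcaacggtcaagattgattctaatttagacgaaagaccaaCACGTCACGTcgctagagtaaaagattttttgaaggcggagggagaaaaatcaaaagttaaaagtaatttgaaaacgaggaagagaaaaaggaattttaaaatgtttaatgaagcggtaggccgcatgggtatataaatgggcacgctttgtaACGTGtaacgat
LEA4-5: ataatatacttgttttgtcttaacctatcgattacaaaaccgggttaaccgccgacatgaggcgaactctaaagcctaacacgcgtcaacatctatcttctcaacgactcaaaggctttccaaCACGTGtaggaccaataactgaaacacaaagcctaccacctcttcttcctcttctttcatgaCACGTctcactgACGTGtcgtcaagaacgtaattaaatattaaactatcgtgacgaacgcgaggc
The core stood in 23.5% of the promoters of all tested genes, in 20 of the 35 tested abscisic acid genes (57.1%) and in 11 of the 18 that rose (61.1%). It stood in 36.9% of the 347 promoters of genes higher by at least 2-fold and in 31.0% of the 187 promoters of genes lower by at least 2-fold, so that both directions exceeded the share of all genes. HAI1 and LTP4 had 0 matches, and LHY and ANNAT1, which fell, had 4 each.

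Light signalling genes that were called were mostly higher, although both genotypes came from darkness. In the dark, the COP1 and SPA proteins mark light-promoting factors such as HY5 for degradation. Of 28 tested genes of this list, 8 rose and 1 fell, with a median log2 of 0.05, and 6 rose and 0 fell without WT r1. HY5 itself was at 43.1, 81.6 and 91.1 rpm in siz1-2 and 13.8, 16 and 28.0 in WT (log2 1.84 ± 0.25, limma adjusted p = 6.37e-05). HYH, its close homologue, was at 2.23, 3.23 and 3.22 rpm against 0.248, 0.523 and 0.547 (log2 1.43 ± 0.18, limma adjusted p = 2.72e-05). SPA1, a partner of COP1, was at 76.2, 147.9 and 106.5 rpm against 28.0, 27.1 and 44.0 (log2 1.69 ± 0.26, limma adjusted p = 0.000222). None of the 3 genes overlapped between groups. ELIP2, an early light-induced protein, was at 1.22, 2.27 and 2.33 rpm against 0.496, 0.262 and 0.438 (log2 1.05 ± 0.33, limma adjusted p = 0.0437). Its call was lost without WT r1, r2 or r3 or siz1-2 r2 or r3 (limma adjusted p = 0.0918, 0.129, 0.084, 0.128 and 0.148). BBX22, BBX24, GLK2 and RUP1, which act with or below HY5 or in greening, also rose, and PIL1, a shade-induced gene, fell. COP1 averaged 36.2 rpm against 36.6 and was not called.

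Of 10 tested chlorophyll synthesis genes, 1 rose and 1 fell. CAO, which makes chlorophyll b, was at 33.7, 64.2 and 41.4 rpm against 25.4, 21.0 and 27.6 (log2 0.84 ± 0.19, limma adjusted p = 0.00675). PORC, a protochlorophyllide reductase of light-grown tissue, was at 1.42, 1.67 and 1.44 rpm against 8.77, 2.97 and 3.28 (log2 −1.13 ± 0.26, limma adjusted p = 0.00756), and was not called when only the 6 libraries were fitted (limma adjusted p = 0.056). WT r1, the library with high photosynthesis genes, was the highest for PORC.

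Of 13 tested circadian clock genes, 4 rose and 2 fell. ELF4, an evening gene of the complex that represses growth at night, was at 16.3, 40.0 and 28.6 rpm in siz1-2 and 3.56, 4.97 and 5.91 in WT (log2 2.27 ± 0.27, limma adjusted p = 1.43e-05). PRR5 was at 61.1, 91.9 and 86.0 rpm against 13.2, 17.8 and 39.0 (log2 1.85 ± 0.30, limma adjusted p = 0.000448). PRR7, like PRR5 a repressor of the morning genes, was at 211.2, 312.7 and 302.2 rpm against 109.2, 135.2 and 138.1 (log2 1.09 ± 0.17, limma adjusted p = 0.000295). All 3 groups of mutant libraries lay above WT. LUX, the DNA-binding partner of ELF4, rose as well. LHY, a morning gene that PRR proteins repress, was at 28.7, 29.1 and 23.2 rpm against 74.6, 74.2 and 62.3 (log2 −1.35 ± 0.22, limma adjusted p = 0.000414), and GRP7, a clock-regulated RNA-binding protein, fell too. CCA1, the close relative of LHY, averaged 80.1 rpm in both genotypes, and TOC1 averaged 113.8 against 105.1, neither of them called. The hour of sampling is not given in the labels, and its part in these values was not tested.

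Called auxin and growth genes were mostly lower. Of 35 tested auxin genes, 2 rose and 8 fell, with a median log2 of −0.14 (1 and 7 without WT r1). GH3.1, an enzyme family member that conjugates auxin, was at 0.711, 0.957 and 0.666 rpm against 4.72, 3.84 and 3.28 (log2 −1.47 ± 0.34, limma adjusted p = 0.00868). The auxin synthesis gene YUC9 was at 1.73, 1.32 and 3.11 rpm against 4.22, 6.89 and 3.17 (log2 −0.91 ± 0.21, limma adjusted p = 0.00665, but 0.0809 when only the 6 libraries were fitted). The groups of YUC9 nearly touched. ATHB-2, a shade-induced homeobox gene, was at 10.8, 9.33 and 12 rpm against 21.2, 23.6 and 17 (log2 −0.88 ± 0.28, limma adjusted p = 0.0468), and TAA1, which makes the precursor that YUC enzymes convert to auxin, was higher, at 13.2, 9.57 and 12.1 rpm against 4.72, 2.27 and 2.74 (log2 1.61 ± 0.49, limma adjusted p = 0.0402). Both calls were lost without any 1 of the 6 libraries (limma adjusted p from 0.0515 to 0.152 and from 0.0518 to 0.135). The transport genes PIN7 and AUX1 fell and PIN4 rose, and IAA4 and HAT2 fell.

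Of 34 tested gibberellin, brassinosteroid and ethylene genes, 1 rose and 3 fell, near the shares over all tested genes (4.37% higher and 6.6% lower). HLS1, which is needed for the apical hook of dark-grown seedlings, was at 1.32, 0.837 and 0.888 rpm against 5.87, 3.14 and 4.16 (log2 −1.40 ± 0.24, limma adjusted p = 0.000664). BAS1, which inactivates brassinosteroids, was at 19.9, 12.1 and 12.1 rpm against 27.0, 25.6 and 25.2 (log2 −0.81 ± 0.19, limma adjusted p = 0.00757). ACO4, an ethylene-forming oxidase, was at 25.9, 28.4 and 23.8 rpm against 42.9, 44.1 and 37.5 (log2 −0.66 ± 0.14, limma adjusted p = 0.0037). In each of these the WT libraries lay above the mutant. CPD, a brassinosteroid synthesis gene, was at 237.0, 246.4 and 218.1 rpm against 164.1, 159.3 and 176.1 (log2 0.49 ± 0.12, limma adjusted p = 0.0128), with its call lost without WT r2 or siz1-2 r2 (limma adjusted p = 0.0536 and 0.0528).

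Genes that loosen and build the cell wall were mostly lower where they were called. Of 30 tested wall genes, 1 rose and 8 fell, with a median log2 of −0.37, but 1 rose and 3 fell without WT r1. The expansin EXPA6 was at 14.4, 13.0 and 9.21 rpm against 36.7, 23.1 and 21.7 (log2 −1.07 ± 0.21, limma adjusted p = 0.0023). XTH33, a xyloglucan-modifying enzyme, was at 3.35, 2.87 and 2.44 rpm against 7.78, 6.28 and 5.25 (log2 −0.93 ± 0.21, limma adjusted p = 0.00574). WT r1 was the highest library for both. EXPA1 was at 24.6, 13.8 and 22.3 rpm against 45.8, 32.1 and 31.5 (log2 −0.84 ± 0.16, limma adjusted p = 0.0013, but 0.0508 when only the 6 libraries were fitted). XTH4, the most abundant of those named, was at 314.4, 212.1 and 243.9 rpm against 520.1, 493.8 and 328.2 (log2 −0.79 ± 0.22, limma adjusted p = 0.0222), lost without WT r1 or r2 or siz1-2 r2 or r3 (limma adjusted p = 0.112, 0.0911, 0.0988 and 0.0745). EXPA4 and the cellulose synthase genes CESA2, CESA3 and CESA5 also fell, and EXPA10 rose.

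The called factors that found lateral roots and callus were all lower, before any callus medium was used. Callus from hypocotyls arises from pericycle cells through a lateral root programme that needs LBD16, PUCHI and PLT factors. Of 23 tested founder genes, 0 rose and 6 fell, with a median log2 of −0.39, and 3 fell without WT r1. PUCHI was at 0.406, 0.239 and 0.444 rpm in siz1-2 and 4.14, 3.75 and 5.03 in WT (log2 −1.96 ± 0.28, limma adjusted p = 0.000107). LBD16 was at 11.1, 7.66 and 5.66 rpm against 20.6, 18.8 and 19.8 (log2 −1.22 ± 0.23, limma adjusted p = 0.00125). The WT libraries were close to each other for both genes. The other 4 were fragile. PLT3 was at 6.80, 6.82 and 8.10 rpm against 15.1, 11.7 and 15.5 (log2 −0.87 ± 0.23, limma adjusted p = 0.0205), lost without WT r1 or r3 or siz1-2 r1 or r2 (limma adjusted p = 0.0792, 0.0702, 0.0542 and 0.0659). WOX5, a gene of the root organiser, was at 0.203, 0.598 and 0.222 rpm against 1.82, 1.74 and 2.41 (log2 −1.16 ± 0.33, limma adjusted p = 0.0266), lost without any 1 WT library or siz1-2 r1 or r3 (limma adjusted p = 0.0642, 0.0568, 0.0853, 0.0714 and 0.0914). PLT1 and PLT2, root stem cell factors, were near the limit of detection. PLT1 had 2 reads over the mutant libraries against 33, a ratio of 13.7 (95% counting interval 3.51 to 118), with its call (limma adjusted p = 0.015) lost without WT r3 or siz1-2 r2 (limma adjusted p = 0.0745 and 0.0538). PLT2 had 0 reads against 26, at least 7.22-fold lower against a floor of 3 reads over the group. Its call (limma adjusted p = 0.0294) was lost without WT r1 or r3 or any 1 siz1-2 library (limma adjusted p = 0.173, 0.0886, 0.0593, 0.0717 and 0.0783), or when only the 6 libraries were fitted (limma adjusted p = 0.0638).

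The 6 tested root hair and root cap markers, of which 0 were called, summed to 1.90, 2.27 and 4.16 rpm in WT and 1.83, 1.79 and 3.22 in siz1-2. SMB, a root cap factor, was at 0, 0.262 and 0.657 rpm in WT and 0.102, 0 and 0 in siz1-2. Whether some explants carried root tissue was not tested beyond these values. BBM, also a root stem cell factor, averaged 0.153 rpm against 1.61 and was not called (limma adjusted p = 0.065), nor was LBD29, at 3.19 against 5.99 (limma adjusted p = 0.0999), while LBD18 averaged 2.85 against 2.87. Of 12 shoot meristem and boundary genes, 1 rose. This was LSH3, at 13.0, 11.4 and 19.1 rpm against 9.35, 11 and 8.21 (log2 0.53, limma adjusted p = 0.0423), whose call was lost without WT r1 or r3 or siz1-2 r3 (limma adjusted p = 0.113, 0.148 and 0.253), or when only the 6 libraries were fitted (limma adjusted p = 0.122).

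Of 12 tested factors that promote reprogramming at wounds, 3 rose and 0 fell, with a median log2 of 0.00. ERF108 was at 21.4, 39.7 and 50.9 rpm in siz1-2 and 5.05, 5.58 and 8.21 in WT (log2 2.34 ± 0.26, limma adjusted p = 5.71e-06). WIND2, a relative of the dedifferentiation factor WIND1, was at 328.5, 390.1 and 434.4 rpm against 133.9, 170.4 and 219.7 (log2 1.15 ± 0.20, limma adjusted p = 0.000794). Both genes were apart between groups. ERF113, also known as RAP2.6L, was at 83.4, 96.1 and 162.4 rpm against 61.5, 56.3 and 63.4 (log2 0.85 ± 0.23, limma adjusted p = 0.0208), lost without WT r1 or r2 or siz1-2 r3 (limma adjusted p = 0.0569, 0.0739 and 0.136), or when only the 6 libraries were fitted (limma adjusted p = 0.0527). WIND1 averaged 536.6 rpm against 417.2 and was not called.

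Of 49 tested cell cycle genes, 0 rose and 4 fell, and 2 fell without WT r1. Over all tested genes 6.6% fell, and 3.43% without WT r1, so the falls in this list were near the share of all genes. E2FA, a factor that starts DNA replication genes, was at 4.47, 3.47 and 5.55 rpm against 6.79, 6.89 and 7.11 (log2 −0.55 ± 0.11, limma adjusted p = 0.00288, but 0.0829 when only the 6 libraries were fitted). MCM7, a replication helicase subunit, was at 15.3, 14.1 and 18.9 rpm against 26.1, 22.5 and 23.0 (log2 −0.55 ± 0.16, limma adjusted p = 0.0347), lost without any 1 WT library or siz1-2 r1 or r2 (limma adjusted p = 0.135, 0.0634, 0.0632, 0.0827 and 0.131). The kinase gene CDKB1;1 was at 7.82, 10.3 and 7.10 rpm against 11.3, 11.5 and 11.6 (log2 −0.42 ± 0.10, limma adjusted p = 0.012), lost without siz1-2 r3 (limma adjusted p = 0.0747) or when only the 6 libraries were fitted (limma adjusted p = 0.118). The mitotic cyclin gene CYCB1;3 was at 17.5, 14.4 and 13.8 rpm against 19.9, 19.0 and 19.8 (log2 −0.35 ± 0.10, limma adjusted p = 0.0201), lost without WT r1 or r3 or siz1-2 r2 or r3 (limma adjusted p = 0.0705, 0.0549, 0.075 and 0.0974), or when only the 6 libraries were fitted (limma adjusted p = 0.108). All 4 changes were small and WT libraries were the higher ones in each.

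Of 23 tested cytokinin genes, 0 rose and 3 fell. CRF2, a cytokinin response factor, was at 0.914, 0.478 and 1.22 rpm against 4.72, 2.79 and 4.60 (log2 −1.42 ± 0.21, limma adjusted p = 0.000168). The receptor gene AHK2 was at 40.4, 33.1 and 27.5 rpm against 47.5, 55.7 and 46.4 (log2 −0.56 ± 0.13, limma adjusted p = 0.00899), lost without WT r2 or siz1-2 r3 (limma adjusted p = 0.0541 and 0.0629). The response regulator gene ARR10 was at 24.7, 26.4 and 26.0 rpm against 36.2, 39.4 and 32.6 (log2 −0.47 ± 0.14, limma adjusted p = 0.0338). Its call was lost without WT r1 or r2 or any 1 siz1-2 library (limma adjusted p = 0.0936, 0.132, 0.0826, 0.0666 and 0.0804).

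Salicylic acid genes are the group best known from siz1 leaves. Of 34 tested genes, 1 rose, the CBP60G described above, and 0 fell, with a median log2 of −0.10, beside 4.37% higher and 6.6% lower over all tested genes. Without WT r1 the counts were 0 and 1. The defence markers PR1 and PR2 had 0 reads in both genotypes. ICS1, the salicylic acid synthesis enzyme, averaged 7.28 rpm against 3.83 (limma adjusted p = 0.731), and the immune regulators EDS1 (26.6 against 28.2), PAD4 (6.55 against 6.30) and SNC1 (13.2 against 18.9) were not called.

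Of 27 tested jasmonate genes, 1 rose and 3 fell, and 0 and 2 without WT r1. JAZ10, a repressor that jasmonate induces, was at 8.22, 5.62 and 3.33 rpm against 18.1, 15.5 and 21.5 (log2 −1.58 ± 0.32, limma adjusted p = 0.00252), and every WT library lay above the mutant. OPR3, a jasmonate synthesis enzyme, was at 18.3, 14.2 and 15.5 rpm against 25.7, 23.3 and 25.4 (log2 −0.61 ± 0.16, limma adjusted p = 0.0177), lost without WT r1 or r3 or siz1-2 r2 or r3 (limma adjusted p = 0.0645, 0.052, 0.0779 and 0.0598). JAZ7 was called lower (limma adjusted p = 0.0365) although its groups overlapped, at 1.42, 2.63 and 3.00 rpm against 4.80, 2.53 and 5.47. It was lost without WT r1 or r3 or siz1-2 r1 or r2 (limma adjusted p = 0.151, 0.166, 0.169 and 0.0501), or when only the 6 libraries were fitted (limma adjusted p = 0.189). VSP2, a jasmonate-induced vegetative storage protein, was the member that rose, at 131.6, 89.7 and 124.3 rpm against 42.7, 40.6 and 35.9 (log2 1.50 ± 0.45, limma adjusted p = 0.0399). Its groups were apart, but the call was lost without any 1 of the 6 libraries (limma adjusted p from 0.0549 to 0.112).

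Early wound and touch genes varied between libraries of 1 genotype. Their mean log2 level was 3.61, 4.49 and 4.27 in WT and 4.77, 4.09 and 4.49 in siz1-2, with WT r1 the lowest. Of 22 tested, 3 rose and 0 fell, and 0 were called without WT r1. BAP1, a membrane protein that restrains cell death, overlapped between groups, at 18.1, 8.25 and 12.2 rpm against 1.90, 9.16 and 6.35 (limma adjusted p = 0.0271). It was lost without WT r1 or siz1-2 r1 or r3 (limma adjusted p = 0.177, 0.116 and 0.0747), or when only the 6 libraries were fitted (limma adjusted p = 0.226). TCH4, a touch-induced wall enzyme, was at 32.7, 21.7 and 21.4 rpm against 11.4, 17.6 and 10.3 (log2 0.90 ± 0.26, limma adjusted p = 0.0268), lost without WT r1 or r3 or siz1-2 r1 (limma adjusted p = 0.104, 0.107 and 0.111). MYB44 was at 305.3, 265.8 and 333.3 rpm against 174.0, 216.9 and 199.9 (log2 0.61 ± 0.17, limma adjusted p = 0.0232), lost without WT r1 or r3 or siz1-2 r1 or r3 (limma adjusted p = 0.113, 0.0515, 0.0543 and 0.104). The exact delay between cut and freezing within the 15 minutes is not given, and its part was not tested.

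Sulfur transport and assimilation genes moved in both directions. In the nitrate and sulfur list, 2 of 16 tested genes rose and 2 fell. SULTR2;1, a sulfate transporter of vascular tissue, was at 437.2, 388.5 and 484.6 rpm in siz1-2 and 102.6, 114.8 and 78.3 in WT (log2 2.15 ± 0.33, limma adjusted p = 0.000248). SULTR4;2, which releases sulfate from the vacuole, was at 2.44, 2.03 and 1.89 rpm against 9.35, 9.51 and 8.87 (log2 −1.72 ± 0.11, limma adjusted p = 3.38e-09). Libraries of 1 genotype lay close together for SULTR4;2. APR2, the main reductase of activated sulfate, was at 14.6, 8.85 and 12.2 rpm against 29.4, 25 and 25.5 (log2 −1.12 ± 0.17, limma adjusted p = 0.000247). LSU1, a gene induced by low sulfur, was at 4.26, 2.75 and 4.33 rpm against 0.993, 1.13 and 0.547 (log2 1.33 ± 0.33, limma adjusted p = 0.0128), lost without WT r3 or siz1-2 r3 (limma adjusted p = 0.0542 and 0.056).

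Of 14 tested copper and iron genes, 3 rose and 1 fell. FER1, an iron-storing ferritin, was at 371.0, 464.7 and 459.4 rpm against 190.3, 191.8 and 188.4 (log2 1.17 ± 0.29, limma adjusted p = 0.0121). YSL3, a transporter of metal chelates, was at 20.6, 19.0 and 13.7 rpm against 55.0, 53.9 and 56.9 (log2 −1.60 ± 0.27, limma adjusted p = 0.000526). The WT libraries were within a few rpm of each other for both. CCS, the copper chaperone of superoxide dismutase, was at 64.2, 66.0 and 59.6 rpm against 44.3, 49.4 and 48.9 (log2 0.41 ± 0.13, limma adjusted p = 0.048), lost without any 1 of the 6 libraries (limma adjusted p from 0.0725 to 0.169). Phosphate starvation genes, for which siz1 roots are known, gave 0 higher and 2 lower of 19, and 0 called without WT r1. PHT1;1, a phosphate transporter, was at 1.62, 0.359 and 0.555 rpm against 6.12, 2.62 and 6.13 (log2 −1.68 ± 0.51, limma adjusted p = 0.039), lost without WT r1 or r3 or siz1-2 r2 or r3 (limma adjusted p = 0.139, 0.114, 0.127 and 0.119). SPX2, a phosphate sensor protein, was lower in every mutant library and averaged 15.6 rpm against 20.1 (log2 −0.35, limma adjusted p = 0.0324), lost without any 1 library (limma adjusted p from 0.0552 to 0.103) or when only the 6 libraries were fitted (limma adjusted p = 0.0696).

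Glucosinolates are sulfur-rich defence compounds, and those made from methionine need MAM enzymes, IPMI and the cytochromes P450 CYP79F and CYP83A1 in turn. In this list 1 of 24 tested genes rose and 2 fell, with a median log2 of −0.33. These counts were near the shares over all tested genes (4.37% higher and 6.6% lower). MAM3, the chain-elongating synthase, was at 1.62, 1.56 and 3.77 rpm in siz1-2 and 15.4, 29.9 and 13.0 in WT (log2 −2.60 ± 0.50, limma adjusted p = 0.0021). CYP79F2 was at 2.13, 1.08 and 2.00 rpm against 9.76, 14.1 and 6.46 (log2 −1.99 ± 0.50, limma adjusted p = 0.0146), lost without WT r2 or siz1-2 r2 (limma adjusted p = 0.0709 and 0.061). The groups were apart in both genes. IPMI1, at 4.36, 1.08 and 1.33 rpm against 8.36, 13.4 and 8.76, and CYP83A1, at 0.102, 0 and 0.222 rpm against 3.06, 6.54 and 3.39, did not pass (limma adjusted p = 0.0984 and 0.055). Both passed when only the 6 libraries were fitted (limma adjusted p = 0.014 and 0.000722). CYP83A1 had 3 reads against 143, a ratio of 39.7 (95% counting interval 13.3 to 195). TGG1, a myrosinase that breaks glucosinolates down, rose, at 246.2, 169.4 and 165.8 rpm against 90.4, 50.1 and 47.0 (log2 1.66 ± 0.35, limma adjusted p = 0.00399). Flowering genes (10 tested) and phenylpropanoid and flavonoid genes (21 tested) gave 0 calls.

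Markers of the tissues in a hypocotyl were compared as well. Of 6 tested endodermis markers, 2 rose, and the 6 summed to 644.3, 466.9 and 535.2 rpm in siz1-2 and 291.8, 312.2 and 262.3 in WT. ESB1, a dirigent protein of the Casparian strip, was at 350.6, 272.6 and 341.5 rpm against 153.8, 180.2 and 151.0 (log2 0.98 ± 0.23, limma adjusted p = 0.00921). CASP5, a scaffold protein of that strip, was at 53.6, 24.6 and 28.6 rpm against 22.8, 13.2 and 16.4 (log2 0.94 ± 0.21, limma adjusted p = 0.00695, but 0.115 when only the 6 libraries were fitted). The summed levels of the groups did not overlap. Among 5 epidermis markers the wax synthesis gene CER1 rose, at 213.5, 189.5 and 267.0 rpm against 146.1, 93.1 and 89.5 (log2 1.04 ± 0.29, limma adjusted p = 0.0246), lost without WT r2 or r3 or siz1-2 r3 (limma adjusted p = 0.0933, 0.0888 and 0.108). FAMA, a guard cell factor and the only stomatal marker high enough to test, was at 2.44, 2.03 and 1.55 rpm against 0.414, 0.611 and 0.109 (log2 1.13 ± 0.17, limma adjusted p = 0.000224). It passed the filter only through the siz1-2 libraries, where it was high, and could not be tested without any 1 of them. Its call is therefore a description only. Among the untested stomatal markers, TMM was at 0.711, 0.12 and 0.222 rpm against 2.4, 0.174 and 0.109. SPCH, MUTE and EPF2 were at or below 0.331 rpm in every freshly cut library. The 7 xylem markers summed to 931.5, 892.4 and 887.2 rpm against 676, 799.4 and 590.6, with 0 called, and 0 of 4 phloem markers were called. Whether the share of these tissues in the explants bears on the gene lists above was not tested.

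To see which differences belonged to the freshly cut stage, the difference at 0 d was tested against the mean difference at CIM 4 d, SIM 4 d and SIM 6 d, which uses other libraries. The difference at 0 d was higher than in culture for 611 genes (3.0%) and lower for 982 (4.82%). With median-of-ratios scaling these counts were 820 and 634, and with TMM scaling 759 and 718. Without WT r1 they were 393 and 426, and without siz1-2 r3 they were 407 and 578. Of the 889 genes called higher at 0 d, 480 departed from culture in the same direction (54.0% of them, and 78.6% of the 611). Of the 1344 called lower, 707 did (52.6% of them, and 72.0% of the 982). Both kinds of call contain the same 0 d difference, so this overlap is partly built in and gives no separate support. Between genotypes in culture, 1.3% of tested genes were higher and 0.904% lower at CIM 4 d, 1.1% and 1.1% at SIM 4 d, and 1.42% and 1.59% at SIM 6 d. At none of these stages were 759 of the higher genes (85.4%) and 1236 of the lower genes (92.0%) called in the same direction. At all 3 of them were 28 higher genes (3.15%) and 19 lower genes (1.41%). The reverse shares follow for CIM 4 d, SIM 4 d and SIM 6 d. Of genes higher there, 29.9%, 26.9% and 26.2% were higher at 0 d, beside 4.37% of all tested genes. Of genes lower there, 27.7%, 24.1% and 20.1% were lower at 0 d, beside 6.6% of all tested genes.

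For some of the largest changes, a departure from culture did not pass the test. QQS averaged 30.1 rpm in siz1-2 and 0.262 in WT at CIM 4 d, and 20.4 against 0.101 at SIM 6 d, and the difference at 0 d was not shown to depart from culture (log2 departure −0.44, limma adjusted p = 0.23). AT1G06620 averaged 0.76 rpm against 8.55 at CIM 4 d and 1.12 against 18.6 at SIM 6 d (departure −0.53, limma adjusted p = 0.0938). AT5G42460 averaged 0.0598 rpm against 3.13 and 0 against 6.39 at those stages (departure −0.30, limma adjusted p = 0.342), although under median-of-ratios scaling it departed (−0.65, limma adjusted p = 0.0456). All 3 kept their direction in culture. MSRB5, at 2.38 rpm against 12.4 and 7.35 against 37.4, did so too (departure −0.33, limma adjusted p = 0.505), and SULTR2;1 was called higher at each culture stage. SCE1 was called higher at every stage (log2 0.68 at 0 d, and 0.32, 0.45 and 0.61 at CIM 4 d, SIM 4 d and SIM 6 d). Its departure of 0.22 did not pass with limma (adjusted p = 0.0734), but did under median-of-ratios scaling (0.31, limma adjusted p = 0.0119) and by edgeR (0.29, edgeR adjusted p = 0.0253).

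Some heat, abscisic acid and light genes departed. For HSFA2 the genotypes averaged 8.50 and 12 rpm at CIM 4 d and 3.86 and 6.43 at SIM 6 d, with siz1-2 first (departure 3.51, limma adjusted p = 0.00528). DREB2A averaged 5.49 against 10.2 rpm at CIM 4 d and 3.47 against 7.14 at SIM 6 d (departure 3.24, limma adjusted p = 4.57e-06). HY5 averaged 28.5 against 31.1 rpm at CIM 4 d and 32.6 against 33.9 at SIM 6 d (departure 1.93, limma adjusted p = 0.000353). None of these was called between genotypes in culture. By list, 5 of 11 heat factors, 3 of 23 heat-induced chaperones, 2 of 8 constitutive chaperones, 16 of 35 abscisic acid genes and 8 of 28 light genes departed upward. Over all tested genes, 3.0% departed upward. LTP4 was higher in siz1-2 at CIM 4 d as well, at 89.9 rpm against 1.91 (log2 4.97, limma adjusted p = 1.55e-08), but averaged below 1 rpm in both genotypes on SIM.

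Of the 24 tested glucosinolate genes, 3 departed upward and 4 downward, beside 3.0% and 4.82% of all tested genes. CYP79F2 averaged 8.88 rpm in siz1-2 against 0.747 in WT at SIM 4 d (log2 2.34, limma adjusted p = 0.0162), the opposite of 0 d, and its departure was −3.57 (limma adjusted p = 0.000823). MAM3 averaged 6.65 against 4.07 rpm there without being called, with a departure of −3.36 (limma adjusted p = 0.00135). LSU1 was the reverse case, higher at 0 d and lower at SIM 4 d, at 4.60 against 14.4 rpm (log2 −1.43, limma adjusted p = 0.0251), and SIM 6 d, at 1.71 against 7.13 (log2 −1.58, limma adjusted p = 0.0106). The founder genes PUCHI and LBD16 reached 66.7 and 88.6 rpm in siz1-2 and 99.9 and 118.1 in WT at CIM 4 d, where neither was called. Their departures were −1.62 and −1.26 (limma adjusted p = 0.00458 and 0.00572), that of PUCHI being lost by edgeR (edgeR adjusted p = 0.2). On SIM, PUCHI averaged below 0.5 rpm in both genotypes.

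**Figure D5:**
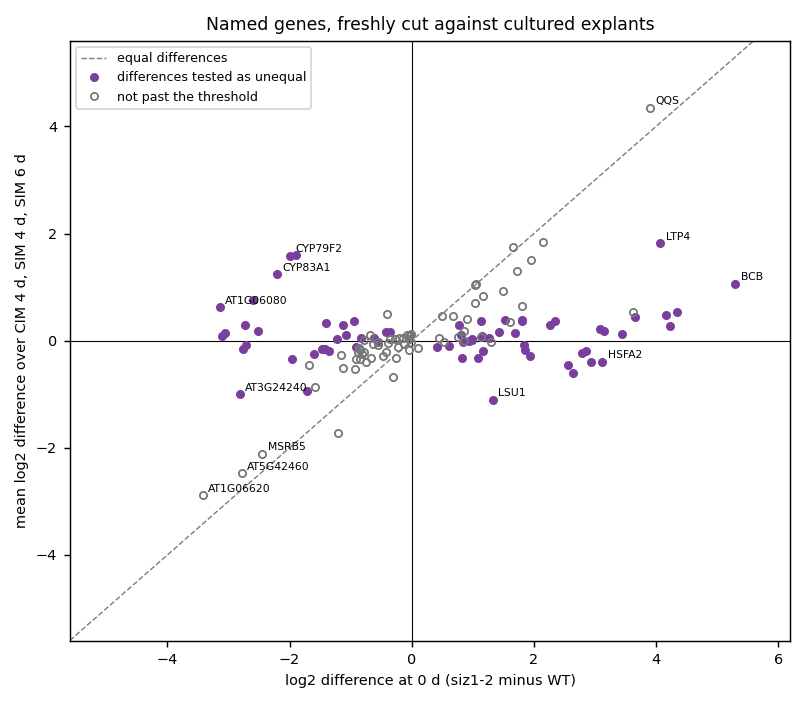
Difference between siz1-2 and WT of the named genes in freshly cut explants (x axis, log2) against the mean of their differences at CIM 4 d, SIM 4 d and SIM 6 d (y axis, log2). Filled points are the 69 genes whose differences were tested as unequal (limma adjusted p below 0.05) and the dashed line marks equal differences. QQS lies near that line, while HSFA2, with a departure of 3.51, and CYP79F2, with −3.57, lie far from it.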

How the data were processed

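Total RNA was purified on columns, treated with DNase and turned into stranded mRNA libraries, per the labels' protocols. Reads were processed with bcl2fastq and Bowtie 1.2.1 against TAIR10, per the submitters' processing notes. Neither the rule that assigned reads to isoforms nor the use of strand is stated there, so reads of overlapping, antisense and near-identical genes cannot be told apart. Each deposited file holds 1 signal value for each of 33864 isoforms in 1 library. Every value (100%, within 0.001 of a read) could be written as a whole number of reads divided by a library total, and values are therefore given as reads per 1000000 library reads (rpm). A read was counted by the authors for each isoform that it matched, as the deposited columns sum to more than 1000000. The recovered totals of all 24 libraries ranged from 7979350 to 15591781 reads.

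The tests had been planned for counts with limma as the choice for scaled values. Genotypes were compared with limma 3.58.1 in R 4.3.3 (trend and robust moderation) on log2(rpm + 1) in 1 model of the 8 group means over 24 libraries (16 residual degrees of freedom), without further scaling. Genes with at least 1 rpm in at least 3 libraries were tested. The difference at 0 d was set against the mean of the differences at the 3 culture stages by a contrast in the same model. Alternatives were edgeR 4.0.16 and DESeq2 1.42.0 on the recovered reads (838 higher and 844 lower by edgeR), TMM and median-of-ratios scaling, pseudocounts of 0.25 and 4, a minimum of 5 rpm or none, summed isoforms, only the 6 libraries, a replicate block, each library left out in turn, and 4 libraries left out together (WT replicate 1 at 0 d, WT replicate 2 and siz1-2 replicate 3 at CIM 4 d, WT replicate 2 at SIM 6 d). On simulated data for this comparison (20191 genes, 200 changed), limma recovered 86% of 2-fold and 97% of 4-fold changes, and 32 of 215 calls were false. Since the spread is pooled over stages, named calls that were lost when only the 6 libraries were fitted are given with that adjusted p. Of the 115 named calls, that fit kept 100 and lost 15. The kept calls include GSTF2, HSP70-4 and PCK1 (limma adjusted p = 3.29e-05, 0.0033 and 0.00044), which the pooled fit lost without single libraries.

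The genes and the 34 gene lists (720 genes) were chosen with earlier results of these data known. Named are the 12 genes each way with the largest folds among calls whose groups do not overlap, the 6 each way with the largest difference in level, up to 4 called members per list (all called SUMO, heat and callus members), all SUMO members, and the 4 each way with the largest departure from culture, beside some others given by level. Of 25960 gene identifiers, 25593 were found in the RefSeq TAIR10.1 annotation, which gave names, coordinates and promoters, and 367 were not. Promoters were read as the 250 bases before the annotated start. Where a group had 0 reads a fold is a bound against 3 reads over the group, and with 1 to 3 reads a ratio with its exact 95% interval. Both cover counting error only. Tables and figures were made with Python 3.11.15, pandas 2.3.3, SciPy 1.17.1 and matplotlib 3.10.9.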

Additional observations from a re-analysis of the deposited data

Results flagged for a closer look

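Genes whose difference between the genotypes in freshly cut explants departed from that in culture, by the contrast of the difference itself, are listed here where they are named and the departure reached 2 on the log2 scale. Over all tested genes, 611 departed upward and 982 downward.

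Upward departures were largest for BCB (4.24), AT1G65190 (3.95), GLIP3 (3.80) and M17 (3.69). AT1G64500 departed by 3.22, AT3G05950 by 2.97, AT1G48100 by 2.87 and LTP4 by 2.25. Of these 8, M17, LTP4 and AT3G05950 did not depart by edgeR (edgeR adjusted p = 0.901, 0.722 and 1.0), and all 3 averaged below 1 rpm in at least 1 culture stage in both genotypes. The departure of AT1G65190 is a description only, as the gene passed the filter only through siz1-2 at 0 d. AT1G65190 also averaged below 1 rpm in both genotypes, at every culture stage, and AT1G64500 and AT1G48100 did so at CIM 4 d. For such genes the departure is largely the 0 d difference set against levels near the floor.

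Among heat and abscisic acid genes, HSFA2 departed by 3.51, HSFA6B by 3.33, HSP70-4 by 3.33, DREB2A by 3.24, HSP101 by 3.04, MBF1C by 3.02, HOP3 by 3.01 and HAI2 by 2.21. HSFA6B averaged below 1 rpm in both genotypes at SIM 4 d and SIM 6 d, so its departure too is largely the 0 d difference. Without WT replicate 1, HSP70-4 and MBF1C no longer departed (limma adjusted p = 0.0896 and 0.0684). The clock gene PRR5 departed by 2.02 and the low-sulfur gene LSU1 by 2.43.

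Downward departures among lipid genes were −3.76 for AT1G06080, −3.20 for AT5G01870, −3.03 for CYP77B1, −2.69 for KCS8 and −2.61 for AT5G22500. At CIM 4 d, AT1G06080 averaged 482.0 rpm in siz1-2 and 711.6 in WT, and CYP77B1 247.3 and 295.8. Without WT replicate 1, CYP77B1 and KCS8 no longer departed (limma adjusted p = 0.0612 and 0.102). AT1G19900 departed by −3.21 with all libraries, but not by edgeR (edgeR adjusted p = 1.0), and too few libraries held it to test it without WT replicate 1. As AT1G19900 passed the filter only through WT at 0 d, its departure is a description only. AT1G17960 departed by −2.64, and averaged at most 1.97 rpm in either genotype at any culture stage. Glucosinolate genes departed by −3.57 (CYP79F2), −3.48 (IPMI1), −3.45 (CYP83A1) and −3.36 (MAM3).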

How the results depend on the processing

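With all libraries, 889 genes were higher, 1344 lower, 611 departed upward from culture and 982 downward. Leaving out 1 of the 6 libraries gave 609 to 882 higher and 697 to 1375 lower genes, with 393 to 641 departures upward and 426 to 1082 downward. The count of lower genes moved by over 1.5 times by edgeR (844), by DESeq2 (860), and without WT replicate 1 (697), WT replicate 2 (849) or siz1-2 replicate 3 (859). The count of downward departures moved as far under median-of-ratios scaling (634), by edgeR (438), by DESeq2 (626), and without WT replicate 1 (426), WT replicate 2 (599) or siz1-2 replicate 3 (578). Upward departures moved as far without WT replicate 1 (393) or siz1-2 replicate 3 (407). The cause was not tested. Of the 115 named genes that were called, 65 kept their call under every alternative that could test them, 50 lost it under at least 1, and 0 reversed. Among 114 of them that could be tested without WT replicate 1, 32 lost the call. By edgeR 18 lost it, namely SWEET11, RD19, ERDJ3A, LTP3, M10, JAZ7, BAP1, WOX5, PLT3, TAA1, YUC9, ATHB-2, MCM7, CYCB1;3, ARR10, PHT1;1, SPX2 and CASP5. By DESeq2 13 lost it, namely SWEET11, RD19, M10, JAZ7, WOX5, TAA1, YUC9, MCM7, CDKB1;1, CYCB1;3, ARR10, SPX2 and CASP5. Same-numbered libraries of the genotypes did not deviate together (r = 0.09, −0.07 and 0.03). These values cannot tell whether such libraries were grown or processed together, which the labels leave unsaid. The fit with a replicate block called 838 higher and 1281 lower genes and 570 upward and 883 downward departures. Depth limits genes below about 1 rpm, where the smallest library (8359478 reads) holds few reads, and 5599 genes were not tested.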

Other observations

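The groups in this section were picked from gene names and products after the values were seen, so they carry no test as groups. Their counts are to be read beside the shares over all tested genes, 4.37% higher and 6.6% lower. Without WT replicate 1 those shares were 3.2% and 3.43%. All 5 tested dark-inducible DIN genes, known from sugar-starved leaves, were higher in siz1-2, with a median log2 of 1.18. DIN11 was at 19.6, 21.2 and 18.1 rpm against 3.14, 3.75 and 2.85 in WT (log2 2.28 ± 0.25, limma adjusted p = 4.48e-06). DIN2, a glycosyl hydrolase, was at 541.9, 659.3 and 834.4 rpm against 158.0, 67.6 and 201.5 (log2 2.36 ± 0.47, limma adjusted p = 0.00301). Both were apart between groups. Of 50 UDP-glycosyltransferase genes, 6 were higher and 4 lower. UGT87A2, known as a regulator of flowering time, was at 45.1, 37.4 and 59.8 rpm against 8.44, 4.88 and 7.88 (log2 2.59 ± 0.16, limma adjusted p = 1.28e-09). UGT73B5, known from the response to hydrogen peroxide and infection, was at 42.8, 40.3 and 45.3 rpm against 7.61, 6.45 and 9.19 (log2 2.33 ± 0.30, limma adjusted p = 3.54e-05). Its annotated span covers that of UGT73B4, so their reads may be shared. Of 41 glutathione transferase genes, 8 were higher and 2 lower, and of 41 MATE efflux carrier genes 9 and 7. The falls among UDP-glycosyltransferase and glutathione transferase genes were near the share of all genes.

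The genes of the thalianol and marneral pathways, which lie in clusters on chromosome 5 and make root triterpenes, were lower. Of 4 thalianol genes 4 were lower, 3 of them without WT replicate 1 and 3 under median-of-ratios scaling. THAS1, the thalianol synthase, was at 181.7, 139.2 and 207.0 rpm against 464.7, 492.0 and 461.8 (log2 −1.44 ± 0.24, limma adjusted p = 0.00062). Of 3 marneral genes 2 were lower. MRN1, the marneral synthase, was at 2.03, 0.239 and 0.333 rpm against 8.52, 4.97 and 6.90 (log2 −2.16 ± 0.23, limma adjusted p = 2.97e-06). CYP71A16, which oxidises its product, was at 13.5, 8.49 and 9.10 rpm against 38.3, 40.5 and 35.5 (log2 −1.81 ± 0.31, limma adjusted p = 0.000669).

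Of 45 histone genes, 0 were higher and 20 lower, with a median log2 of −0.37 (12 lower without WT replicate 1 and 17 under median-of-ratios scaling). Of 325 genes with a product named ribosomal, 5 were higher and 60 lower, with a median of −0.21, and 3 and 29 without WT replicate 1. Histone and ribosomal protein genes have near-identical copies, so single members are uncertain.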
